A study of Mus musculus with 55 samples.

Results

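Lung RNA of 10 mice, 1 array per mouse, was used to describe what a single injection of dexamethasone changed within 8 hours. All 10 were male C57BL/6 mice that arrived at 6 weeks of age and were acclimated for 2 weeks to AIN-76A, a purified diet. The members were chosen by their labels as the 5 mice injected intraperitoneally with 1 mg/kg dexamethasone in saline (replicates A, B, C, E and F) and the 5 mice injected with saline alone (replicates B, C, D, E and F), out of 55 arrays in the series. Other mice of the same diet are given beside them: 4 of 5 mice injected with 1 mg/kg sodium arsenite, 5 mice injected with both agents at these doses, and 5 uninjected control mice kept on the diet for 5 weeks. The array of arsenite replicate E was of low quality and was left out of the fit. The labels call the mice biological replicates.

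Dexamethasone is a synthetic glucocorticoid. It binds the glucocorticoid receptor (Nr3c1), which then enters the nucleus, binds DNA at paired short elements and raises the transcription of genes such as Fkbp5, Tsc22d3 and Per1, while inflammatory genes driven by NF-kB and AP-1 are typically held down. Glucocorticoids are also known to kill immature lymphocytes and to move lymphocytes, monocytes and eosinophils out of the blood, and they are given for inflammatory lung disease and to mature the fetal lung.

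Values are log2 intensities of probe sets, groups of short probes made to read the transcripts of 1 gene, although 932 carry more than 1 gene symbol. A probe set was called where its limma adjusted p, corrected over all 45037 probe sets, was under 0.05. After normalization the 10 arrays had like distributions: the median log2 intensity ran from 4.267 to 4.369 and the SD from 2.309 to 2.4. The 3′ minus 5′ difference of the Gapdh control probe sets, which rises with RNA degradation, was 0.151 to 0.807 after saline and 0.142 to 0.416 after dexamethasone. For actin it was 0.832 to 1.26 and 0.701 to 1.33. The part of RNA quality in the changes was not tested. Lung markers were high in every mouse, as for Sftpc, the surfactant protein of alveolar type II cells, at 14.13 to 14.20 after saline and 14.10 to 14.30 after dexamethasone. Saline replicate E stood apart in 4 lists. It read 7.59 as the mean of 8 thymus markers, where the other 4 saline mice read 3.64 to 3.76, and 7.24 as the mean of 21 T cell markers against 4.95 to 5.36. It also read 6.55 for red blood cell markers against 5.68 to 5.87 and 6.72 for cell cycle genes against 5.76 to 6.02. Counts are therefore also given without this mouse. The names of the raw array files carry 5 prefixes, called batches here, although the labels do not say what a prefix stands for. Counting only these 10 arrays, 3 batches hold 1 saline and 1 dexamethasone mouse each. Batch 3 holds saline replicates B and C, and batch 4 holds dexamethasone replicates E and F, beside other arrays of the series.

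The largest rises were those of Sema5a, Tecrl and Fst, and the largest falls those of Adgre4, Ms4a4c and Treml4. In all, dexamethasone raised 121 probe sets (0.269% of those tested) and lowered 161 (0.357%). At 1 probe set per gene these were 62 genes that rose (0.341% of 18193) and 115 that fell (0.632%). The rises had a median of 0.84 on the log2 scale and a largest value of 2.11. The falls had a median of −0.99 and reached −2.56. All 62 rises and 109 of the 115 falls had the same direction in each of the 3 batches that hold both groups. The 5 dexamethasone mice did not overlap the 5 saline mice for 112 of the 121 higher and 138 of the 161 lower probe sets, beside 2.14% of all probe sets in either direction. The calls were made on the same arrays, so neither the shared direction nor the lack of overlap is separate support for them.

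The number of calls changed with the mice included. The 46 genes named here that passed kept their direction in all 22 alternatives run on each. The alternatives reuse the arrays on which these genes were chosen, so the kept direction is no separate support. Cxcl12, Gzmb and Tnik passed in only 7 of the 22. Higher calls numbered 72, 104, 129, 75 and 48 without saline replicates B, C, D, E and F. Without dexamethasone replicates A, B, C, E and F they numbered 97, 67, 158, 30 and 41. Lower calls numbered 62, 129, 273, 99 and 24 without saline replicates B, C, D, E and F. Without dexamethasone replicates A, B, C, E and F they numbered 149, 45, 92, 17 and 37. With the low-quality arsenite array in the fit, 8 higher and 0 lower probe sets were called. The 6 arrays of the shared batches alone gave 0 calls in either direction.

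**Figure D1:**
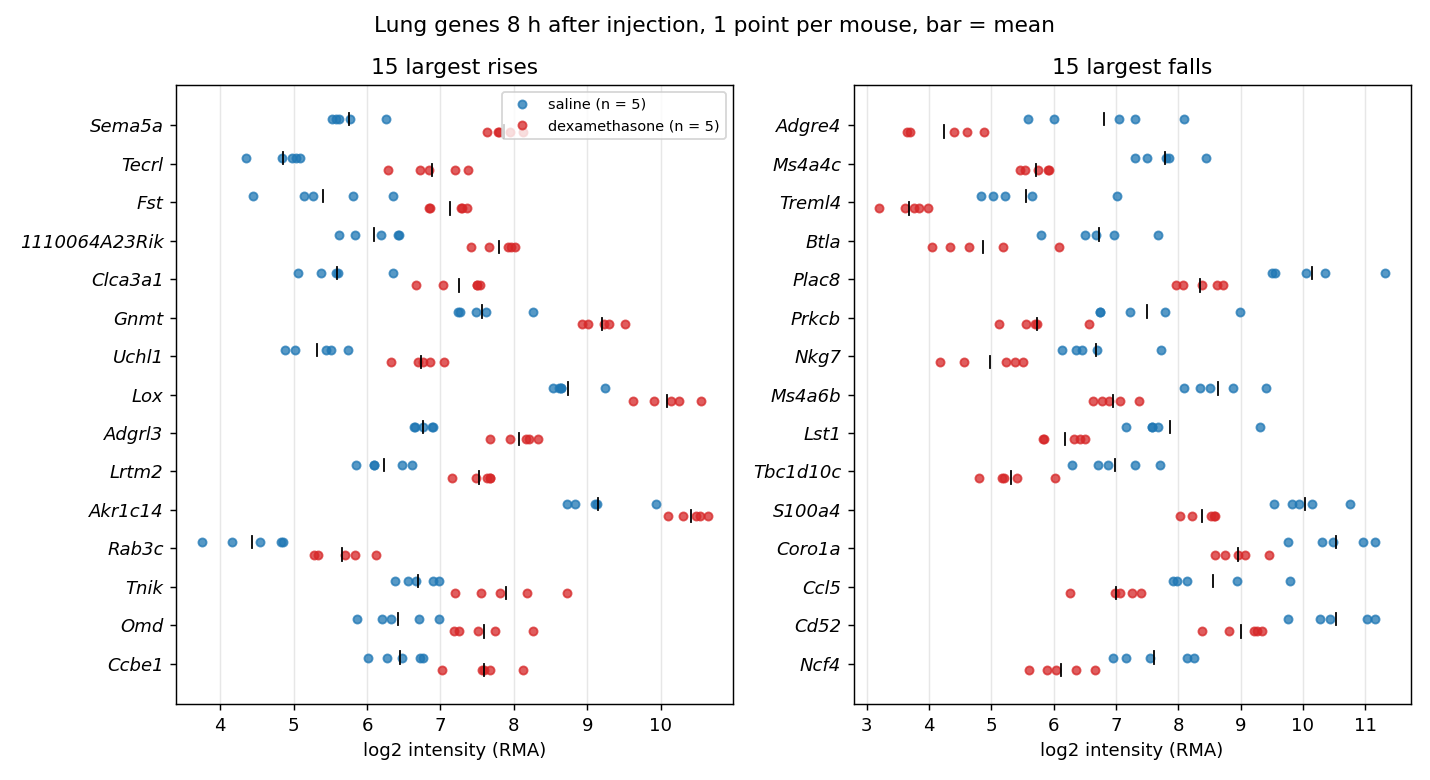
Log2 RMA intensity (x axis) of the 15 genes with the largest rise (left) and the 15 with the largest fall (right), 1 point per mouse, saline in blue, dexamethasone in red and the mean of 5 mice as a black bar. Every gene on the left has its 5 red points to the right of all blue points, and on the right panel only Btla overlaps, with 1 dexamethasone mouse at 6.09 inside the saline range.

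The largest rise was that of Sema5a, a semaphorin guidance molecule of the cell surface. It read 5.76, 5.62, 5.58, 6.26 and 5.53 in saline replicates B to F and 7.63, 7.95, 7.80, 8.13 and 7.79 in dexamethasone replicates A, B, C, E and F. Every treated mouse lay at least 1.37 log2 units above every saline mouse, and the rise was 2.11 ± 0.21 (SE, limma adjusted p = 0.000282), or 4.32-fold. All 4 of its probe sets had the same sign and 2 were called. Uninjected mice read 5.77 ± 0.22 (SD, n = 5), close to saline.

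Fst encodes follistatin, a secreted protein that binds and blocks activins. Its saline mice read 5.14, 5.80, 5.26, 6.36 and 4.44, and its dexamethasone mice 6.85, 7.29, 6.85, 7.28 and 7.36. The saline mice were spread over 1.91 log2 units and the treated mice over 0.52, without overlap, and the rise was 1.73 ± 0.25 (SE, adjusted p = 0.00315). Both probe sets of the gene were called.

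Tecrl, an endoplasmic reticulum protein best known from heart muscle, read 4.84, 5.09, 4.98, 5.03 and 4.35 after saline and 6.29, 7.20, 6.72, 7.38 and 6.84 after dexamethasone. The groups were 1.20 log2 units apart, with a rise of 2.03 ± 0.26 (SE, adjusted p = 0.00134). The list of 11 heart muscle markers had a level of 6.75 to 10.17 in saline mice and 7.77 to 10.80 in treated mice. All 11 were higher in sign after dexamethasone, with a median of 0.64 (1.52 on the 6 arrays of the shared batches, with the batch as a block), and none was called. The part of heart tissue in the rise of Tecrl was not tested.

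Several rises were in genes of small-molecule metabolism. Gnmt, which methylates glycine and uses up S-adenosylmethionine, read 7.61, 7.48, 8.26, 7.24 and 7.26 after saline and 9.22, 9.01, 8.93, 9.30 and 9.52 after dexamethasone. The rise was 1.63 ± 0.22 (SE, adjusted p = 0.00188), and uninjected mice lay lower still at 7.08. Akr1c14, a hydroxysteroid dehydrogenase of the aldo-keto reductase family, read 9.13, 9.94, 9.10, 8.72 and 8.83 against 10.30, 10.64, 10.10, 10.53 and 10.48. The lowest treated mouse was 0.16 above the highest saline mouse, and the rise was 1.27 ± 0.18 (SE, adjusted p = 0.00315). Gsta3, a glutathione transferase, was the 1 of 14 airway secretory cell genes that passed (0.341% of all genes rose), with a rise of 0.84 ± 0.17 (SE, adjusted p = 0.0301).

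Other large rises concerned the cell surface, the matrix and neuronal-type proteins. Adgrl3, the adhesion receptor latrophilin-3, rose by 1.30 ± 0.19 (SE, adjusted p = 0.00375), and all 6 of its probe sets were called, the most of any gene named here. Uchl1, a ubiquitin hydrolase best known from neurons, rose by 1.42 ± 0.19 (SE, adjusted p = 0.00188). Clca3a1, of the calcium-activated chloride channel regulator family, rose by 1.65 ± 0.29 (SE, adjusted p = 0.016), although only 0.32 within batch 1, where the saline mouse read 6.36. Lox, the lysyl oxidase that cross-links collagen and elastin, rose by 1.36 ± 0.28 (SE, adjusted p = 0.0337). Omd (osteomodulin, a matrix proteoglycan, 1.17), Ccbe1 (a secreted factor of lymph vessel growth, 1.14), Rab3c (a vesicle GTPase, 1.23), Tnik (a kinase of the Wnt and JNK pathways, 1.20), Lrtm2 (1.30) and 1110064A23Rik (1.69) complete the 15, with adjusted p from 0.00123 to 0.0476.

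The promoters of these genes were searched for the element bound by the glucocorticoid receptor, read as AGAACA, 3 bases of any kind, then TGTTCT, and for the 6-base element alone on either strand, in the 250 bases before and 50 after each RefSeq start site (GRCm38.p6). The paired element with at most 1 mismatch was in 0.164% of all 32851 promoters, and without mismatch in 3 of them. None of the 13 promoters found for 10 of the 15 rising genes, and none of the 12 found for 10 of the 15 falling genes, held it. At a share of 0.164%, none was the likely outcome for any set this small, so the absence does not set these genes apart. The 6-base element alone was in 3 of 13 and 6 of 12 of these promoters and in 19% of all. The 4 sequences below are the 250 bases before the start, 5′ to 3′ in the direction of the gene, for the gene with the largest rise (no match), a rise with a match and 2 falls with a match, with the matching 6 bases in capitals. A match is only a match of letters, and a window this short leaves distant sites unread.
Sema5a (chr15:32244563-32244812, plus strand): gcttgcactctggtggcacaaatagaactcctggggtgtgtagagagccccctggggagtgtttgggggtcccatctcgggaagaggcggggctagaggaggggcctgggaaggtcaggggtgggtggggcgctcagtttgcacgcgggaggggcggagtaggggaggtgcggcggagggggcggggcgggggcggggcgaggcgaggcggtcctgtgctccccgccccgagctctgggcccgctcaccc
Tecrl (chr5:83355196-83355445, minus strand): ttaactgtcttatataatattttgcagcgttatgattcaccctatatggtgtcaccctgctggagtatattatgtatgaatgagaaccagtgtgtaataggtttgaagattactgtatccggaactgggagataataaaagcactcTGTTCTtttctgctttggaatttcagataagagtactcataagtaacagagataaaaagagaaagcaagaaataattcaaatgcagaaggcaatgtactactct
Btla (chr16:45224087-45224336, plus strand): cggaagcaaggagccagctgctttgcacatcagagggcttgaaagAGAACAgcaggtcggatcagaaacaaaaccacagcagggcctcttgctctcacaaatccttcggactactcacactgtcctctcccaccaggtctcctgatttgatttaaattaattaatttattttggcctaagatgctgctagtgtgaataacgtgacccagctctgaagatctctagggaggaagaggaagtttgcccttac
Nkg7 (chr7:43436888-43437137, plus strand): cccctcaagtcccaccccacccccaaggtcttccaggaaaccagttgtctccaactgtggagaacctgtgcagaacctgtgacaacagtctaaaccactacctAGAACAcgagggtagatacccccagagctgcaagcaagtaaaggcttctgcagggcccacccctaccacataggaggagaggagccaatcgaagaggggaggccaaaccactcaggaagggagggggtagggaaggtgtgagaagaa
In Tecrl the element starts 104 bases before the start site, in Btla 205 and in Nkg7 147.

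Adgre4, the gene with the largest fall, is an adhesion receptor of monocytes and macrophages. It read 6.01, 5.58, 7.05, 7.30 and 8.10 in saline replicates B to F and 4.61, 4.88, 3.69, 3.64 and 4.40 in dexamethasone replicates A, B, C, E and F. The saline mice were spread over 2.52 log2 units and all lay above the treated mice. The fall was −2.56 ± 0.50 (SE, limma adjusted p = 0.0262), or 5.92-fold, and uninjected mice read 7.03. In bulk lung RNA, fewer cells of a type and less RNA per cell cannot be told apart.

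Treml4, a receptor of myeloid cells, was the 1 of 17 macrophage and monocyte markers that passed (0.632% of all genes fell). It read 5.03, 4.84, 5.22, 5.65 and 7.02 after saline and 3.83, 3.98, 3.75, 3.20 and 3.62 after dexamethasone. Saline replicate F was highest by more than 1 log2 unit, and the fall was −1.88 ± 0.33 (SE, adjusted p = 0.0157). Other genes known from myeloid cells or leukocytes at large fell too: Ms4a4c (−2.06) and Ms4a6b (−1.70), membrane proteins of the MS4A family, Plac8 (−1.80), Lst1 (−1.68), Ncf4 (a subunit of the phagocyte NADPH oxidase, −1.50), S100a4 (a calcium-binding protein of motile cells, −1.65), Cd52 (a lymphocyte and monocyte surface antigen, −1.53) and Prkcb (a protein kinase C isoform, −1.76). Their adjusted p ran from 0.0166 to 0.0329. Of the 17 macrophage and monocyte markers 13 were lower in sign, with a median of −0.50. By limma, 10 of them were lower at an unadjusted p under 0.05, beside 1345 of all 18193 genes. Among the markers that did not pass, the alveolar macrophage genes Chil3 (0.10), Marco (0.13) and Mrc1 (−0.08) and the lysozyme gene Lyz2 (0.02) had changes near 0, with adjusted p from 0.914 to 0.983.

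Markers of killer lymphocytes were lower in most cases. Of 14 measured NK and cytotoxic cell markers, 3 fell, beside 0.632% of all genes, and 13 were lower in sign with a median of −0.84. Over all 18193 genes the median was −0.005 and 51.31% were lower in sign, the values to set beside the other lists. Nkg7, a granule membrane protein, read 6.70, 6.14, 6.36, 6.46 and 7.72 after saline and 5.51, 5.38, 4.18, 4.56 and 5.23 after dexamethasone. No treated mouse reached the lowest saline mouse, and the fall was −1.70 ± 0.32 (SE, adjusted p = 0.0214). Ctsw, the cathepsin of killer cells, fell by 1.19 ± 0.19 (SE, adjusted p = 0.00725), and Gzmb, the protease granzyme B, fell by 1.31 ± 0.30 (SE, adjusted p = 0.0492). Gzma (−1.63, adjusted p = 0.087), Klrd1 (−1.34, adjusted p = 0.127) and the NK receptor Ncr1 (−0.58, adjusted p = 0.127) did not pass, and perforin, Prf1, was at 0.07. The mean level of the list was 5.16 to 6.07 in saline mice, 4.38 to 4.89 after dexamethasone and 5.40 to 5.82 in uninjected mice. Both control groups thus lay above every treated mouse, and without saline replicate E the median change was −0.77.

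**Figure D2:**
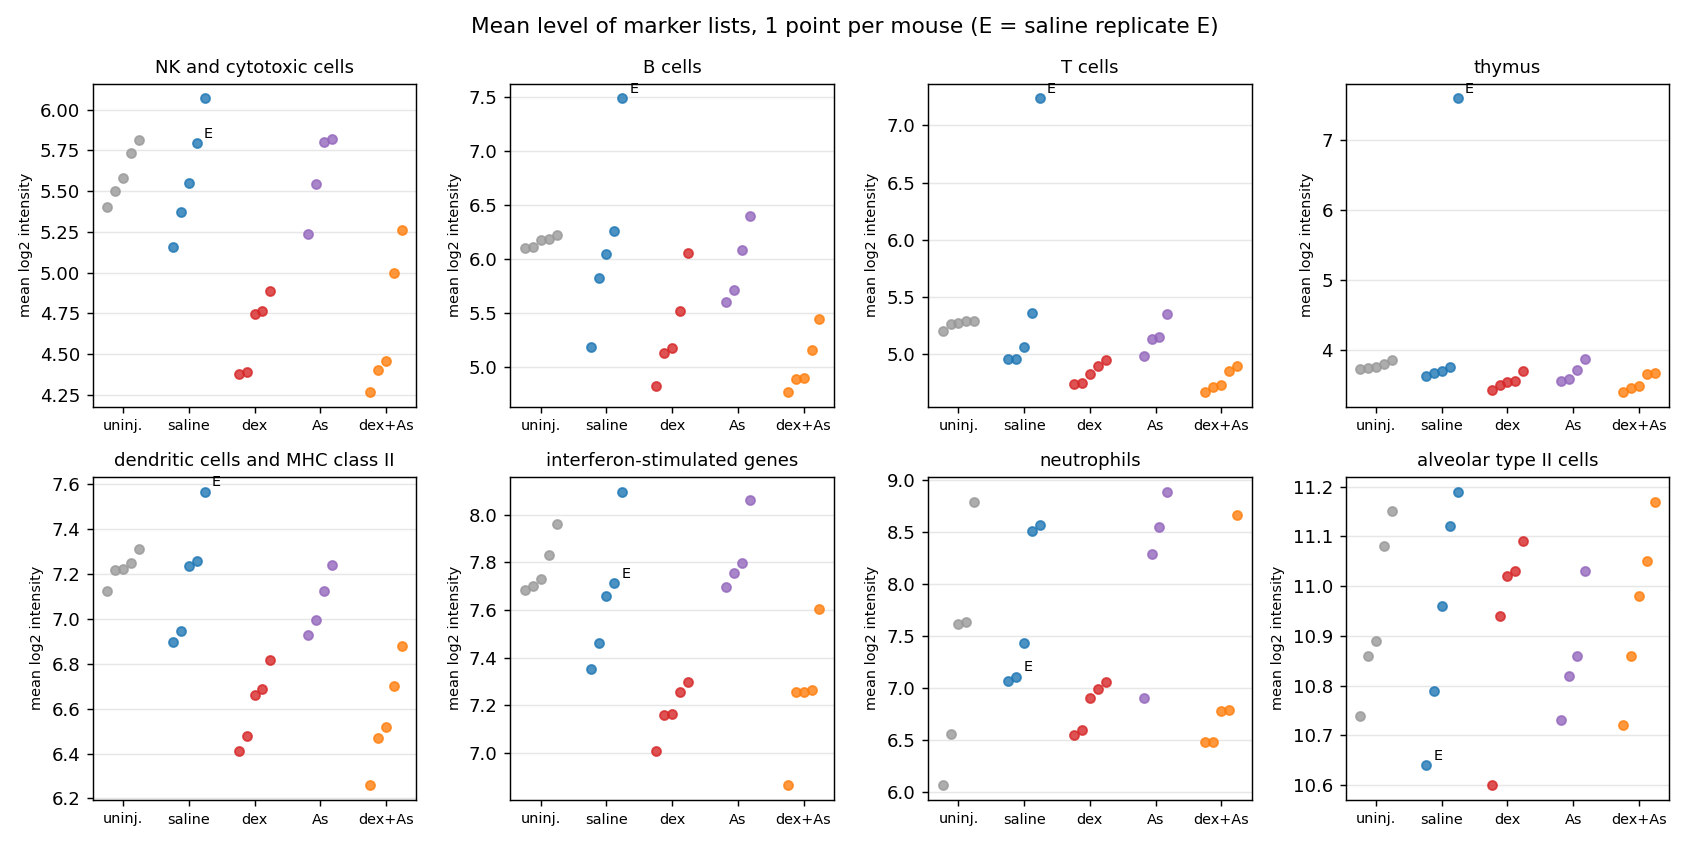
Mean log2 intensity of 8 gene lists (y axis), 1 point per mouse, in uninjected, saline, dexamethasone (dex), arsenite (As, n = 4) and dexamethasone and arsenite (dex+As) mice, 5 per group elsewhere, with saline replicate E marked. Dexamethasone mice lie below all saline mice for NK and cytotoxic cells, T cells, dendritic cells and MHC class II, interferon-stimulated genes and neutrophils, while the thymus list is high in saline replicate E alone. For T cells the groups nearly touch, with the highest dexamethasone mouse at 4.943 and the lowest saline mouse at 4.951. For neutrophils the uninjected mice overlap the dexamethasone mice.

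B and T cell markers did not pass one by one. Of 18 B cell markers 17 were lower in sign with a median of −0.83, and Cd79a, a part of the B cell receptor, read 7.44, 5.89, 6.88, 8.74 and 8.40 after saline against 6.92, 5.59, 7.06, 4.95 and 5.37. The groups overlapped, and the exact permutation test over all divisions of the 10 mice gave p = 0.0556 for Cd79a (two-sided). Of 21 T cell markers 18 were lower, with a median of −0.72 that became −0.19 without saline replicate E. The B cell median became −0.49 and the thymus median moved from −1.04 to −0.09 without that mouse. Btla, an inhibitory receptor of B and T cells, did pass, at −1.87 ± 0.40 (SE, adjusted p = 0.0369). So did Coro1a, an actin regulator of leukocytes (−1.57, adjusted p = 0.00681), and Tbc1d10c, a lymphocyte inhibitor of calcineurin (−1.66, adjusted p = 0.00315).

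A few genes that let leukocytes adhere and receive signals fell. The counts of falls in this and the later lists stand beside 0.632% of all genes. In the list of 29 adhesion and migration genes 20 were lower in sign and 3 fell: Coro1a, the LFA-1 integrin subunit Itgal (−1.42 ± 0.23 SE, adjusted p = 0.00831) and the VLA-4 subunit Itga4 (−1.25 ± 0.27 SE, adjusted p = 0.0408). Itgal read 8.48, 8.26, 8.39, 8.92 and 9.68 after saline and 7.56, 7.44, 7.01, 7.11 and 7.52 after dexamethasone, with a gap of 0.70 between the groups. Of 34 cytokine and chemokine receptors 26 were lower in sign, with a median of −0.43, and 2 passed: Tnfrsf1b, a receptor of TNF (−0.90, adjusted p = 0.0291), and Il2rb, a chain of the IL-2 and IL-15 receptors (−0.97, adjusted p = 0.0336). Among 40 cytokines and chemokines the T cell and NK product Ccl5 (−1.55, adjusted p = 0.029) and the stromal chemokine Cxcl12 (−1.11, adjusted p = 0.0492) fell. Cxcl12, a ligand made mainly by stromal cells, read 9.09, 9.31, 9.40, 9.15 and 9.74 after saline and 8.02, 8.57, 8.24, 8.11 and 8.21 after dexamethasone.

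Antigen presentation and interferon genes were mostly lower in sign. Of 17 dendritic cell and MHC class II genes 2 fell, H2-Ab1 (−1.01 ± 0.18 SE, adjusted p = 0.017) and H2-Eb1 (−0.86 ± 0.19 SE, adjusted p = 0.0463), both chains of the class II molecules that present peptides to helper T cells. H2-Ab1 read 11.32, 10.73, 10.50, 11.30 and 11.03 against 10.13, 10.12, 9.85, 9.54 and 10.20, without overlap. Of 30 interferon-stimulated genes 28 were lower in sign, with a median of −0.47 and a list level of 7.35 to 8.10 after saline, 7.00 to 7.30 after dexamethasone and 7.68 to 7.96 in uninjected mice. Irf7, the master regulator of type I interferons (−0.82, adjusted p = 0.029), and Zbp1, a sensor of nucleic acids (−1.30, adjusted p = 0.0301), passed. Oasl2 (−0.90) had an adjusted p of 0.0503 and Oas1a (−0.84) one of 0.0618.

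Neutrophil markers had large but variable values. S100a9, a subunit of calprotectin, read 11.86, 13.75, 12.42, 12.33 and 13.51 after saline and 10.29, 11.14, 10.95, 10.35 and 11.45 after dexamethasone. The groups did not overlap, but the saline mice differed by 1.89 log2 units and the adjusted p of the change of −1.94 was 0.155. None of 17 neutrophil markers passed, 14 were lower in sign with a median of −0.92, and the list level of uninjected mice, 6.06 to 8.79, spanned both groups. Platelet markers were at 9.18 in saline replicate F and 6.16 to 7.12 in the other saline mice, and their part in the falls was not tested. In the batch of that mouse the 115 falling genes had a median difference of −1.48, against −0.38 and −1.10 in the other shared batches, while the 62 rises had medians of 0.73, 0.76 and 0.93.

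**Figure D3:**
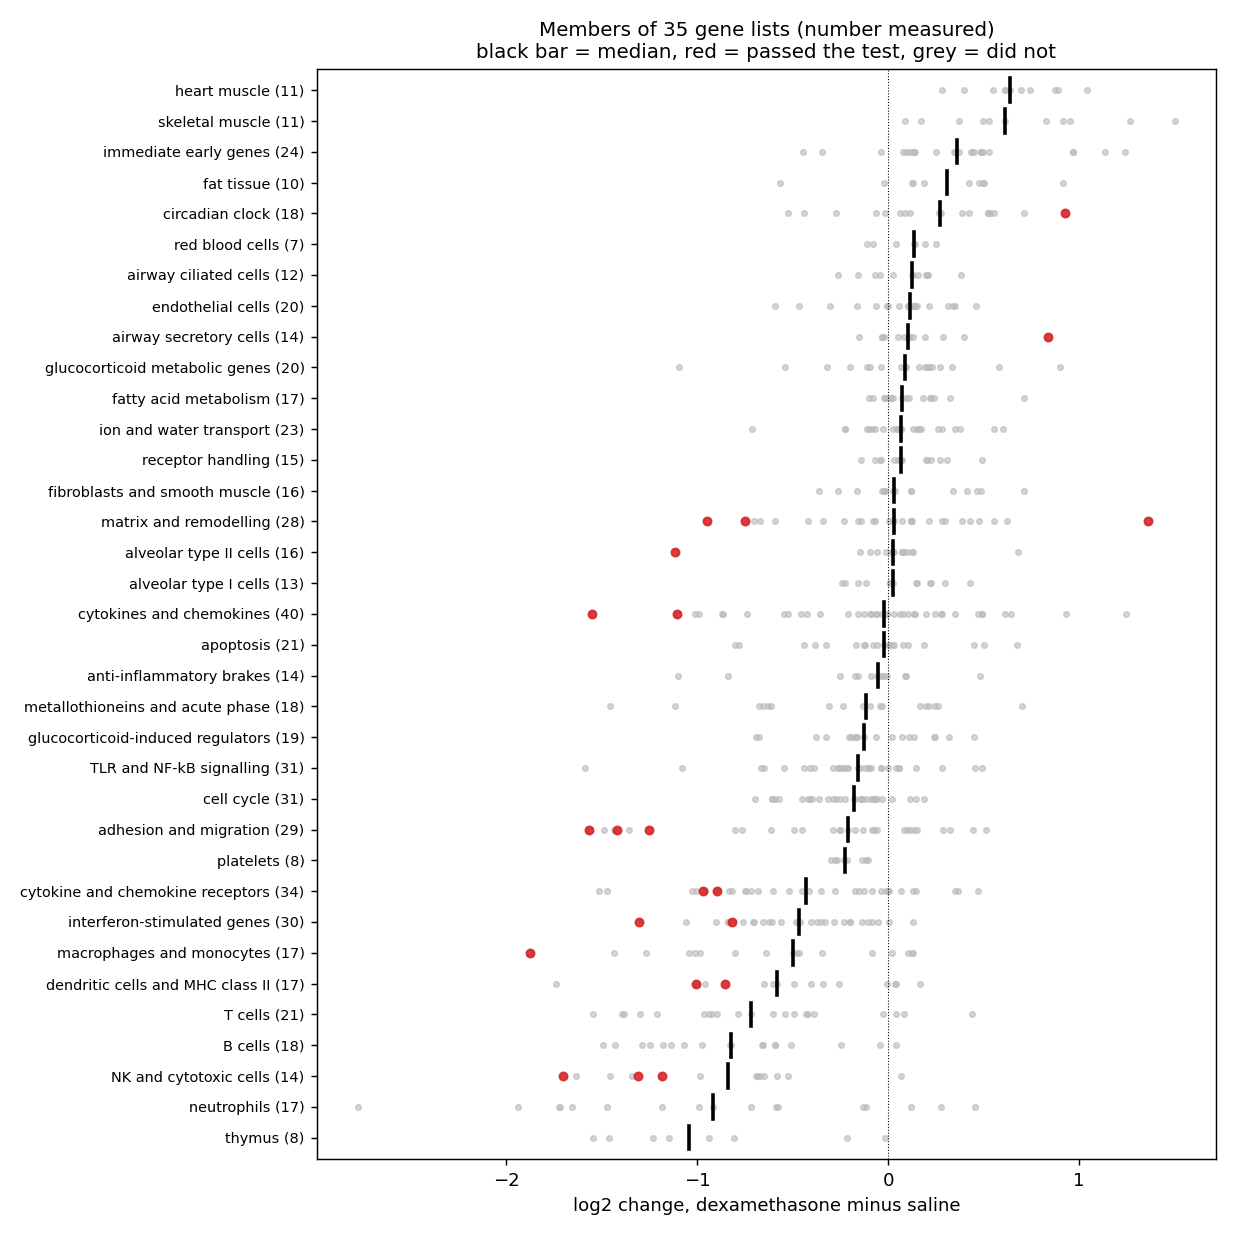
Log2 change, dexamethasone minus saline (x axis), of each measured member of 35 gene lists, with the list median as a black bar, genes that passed limma in red and the others in grey. Leukocyte and thymus lists lie at the bottom with medians of −0.50 to −1.04. Without saline replicate E the thymus median is −0.09 and the T cell median −0.19. The lists of alveolar, endothelial and mesenchymal cells lie within 0.13 of 0.

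Markers of the structural cells of the lung had medians close to 0. The median change was 0.03 for 16 alveolar type II genes, 0.03 for 13 alveolar type I genes, 0.12 for 20 endothelial genes and 0.03 for 16 fibroblast and smooth muscle genes. The surfactant genes Sftpc (0.02) and Sftpb (0.07) and the epithelial sodium channel subunits Scnn1a (−0.07), Scnn1b (0.15) and Scnn1g (0.07), known from fetal lung as glucocorticoid-responsive, did not pass. Egfl6, a secreted EGF-like protein on the type II list, was the exception, with a fall of −1.12 ± 0.23 (SE, adjusted p = 0.0352). Among 28 matrix genes Lox rose, beside 0.341% of all genes. The related Loxl1 (−0.75, adjusted p = 0.0337) and tenascin C, Tnc (−0.95, adjusted p = 0.0301), fell. Skeletal muscle markers read 7.02 in dexamethasone replicate A and 4.02 to 4.63 in the other treated mice, with no member called, and fat markers ranged from 5.19 to 9.58 after saline and from 5.41 to 8.65 after dexamethasone.

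Textbook targets of the glucocorticoid receptor gave no call. None of 19 glucocorticoid-induced regulators and none of 20 metabolic targets passed, and their medians were −0.13 and 0.09. Fkbp5, the immunophilin that restrains the receptor, read 9.65, 10.04, 7.70, 8.38 and 8.41 in saline replicates B to F and 9.22, 8.77, 8.91, 9.48 and 8.15 in dexamethasone replicates A, B, C, E and F. The 2 highest of all 10 values were saline mice, replicates B and C, and the change was 0.07 (95% interval −1.01 to 1.15, adjusted p = 0.995). Uninjected mice read 7.45 ± 0.29 (SD, n = 5), and their highest, 7.83, was under every saline and dexamethasone mouse but saline replicate D. Tsc22d3, which encodes the anti-inflammatory protein GILZ, read 11.02, 10.89, 10.30, 10.01 and 9.80 against 9.94, 10.40, 10.18, 10.50 and 10.14, with a change of −0.17 (adjusted p = 0.936). Saline replicates B and C were again the highest.

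The same 2 mice were the highest of the saline group for Zbtb16, Per1, Cdkn1a, Mt1, Mt2, Pdk4 and Angptl4. Over the list of 19 regulators they had levels of 9.68 and 9.63, where the other saline mice had 8.65 to 8.89, treated mice 8.88 to 9.41 and uninjected mice 8.31 to 8.84. Among the 10 arrays, batch 3 holds only these 2, so within the 10 the batch and these mice cannot be told apart. Batch 3 also holds uninjected replicate A, whose group ran from 8.31 to 8.84. It holds a mouse given both agents too, whose group ran from 8.66 to 9.96. The part of the batch was not tested. Within the 3 shared batches dexamethasone minus saline was 0.49, 1.52 and 0.39 for Fkbp5, 1.08, 0.97 and 0.62 for Mt1 and 0.93, 1.22 and 0.37 for Mt2, and with batch as a block on these 6 arrays the changes were 0.80, 0.89 and 0.84 (adjusted p = 0.815, 0.581 and 0.66). Several other targets had mixed signs over these batches, at 0.38, −0.36 and 0.39 for Tsc22d3, −1.32, 0.59 and −0.18 for Zbtb16, 0.95, −0.12 and −0.10 for Per1, 1.26, 0.18 and −0.36 for Pdk4, and 0.79, −0.16 and −0.79 for Dusp1. Sgk1 (0.32), Klf9 (0.24), Dusp1 (−0.04) and Nfkbia (0.00) did not pass either. The receptor Nr3c1 (0.05) and the steroid-activating enzyme Hsd11b1 (0.20) did not pass.

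**Figure D4:**
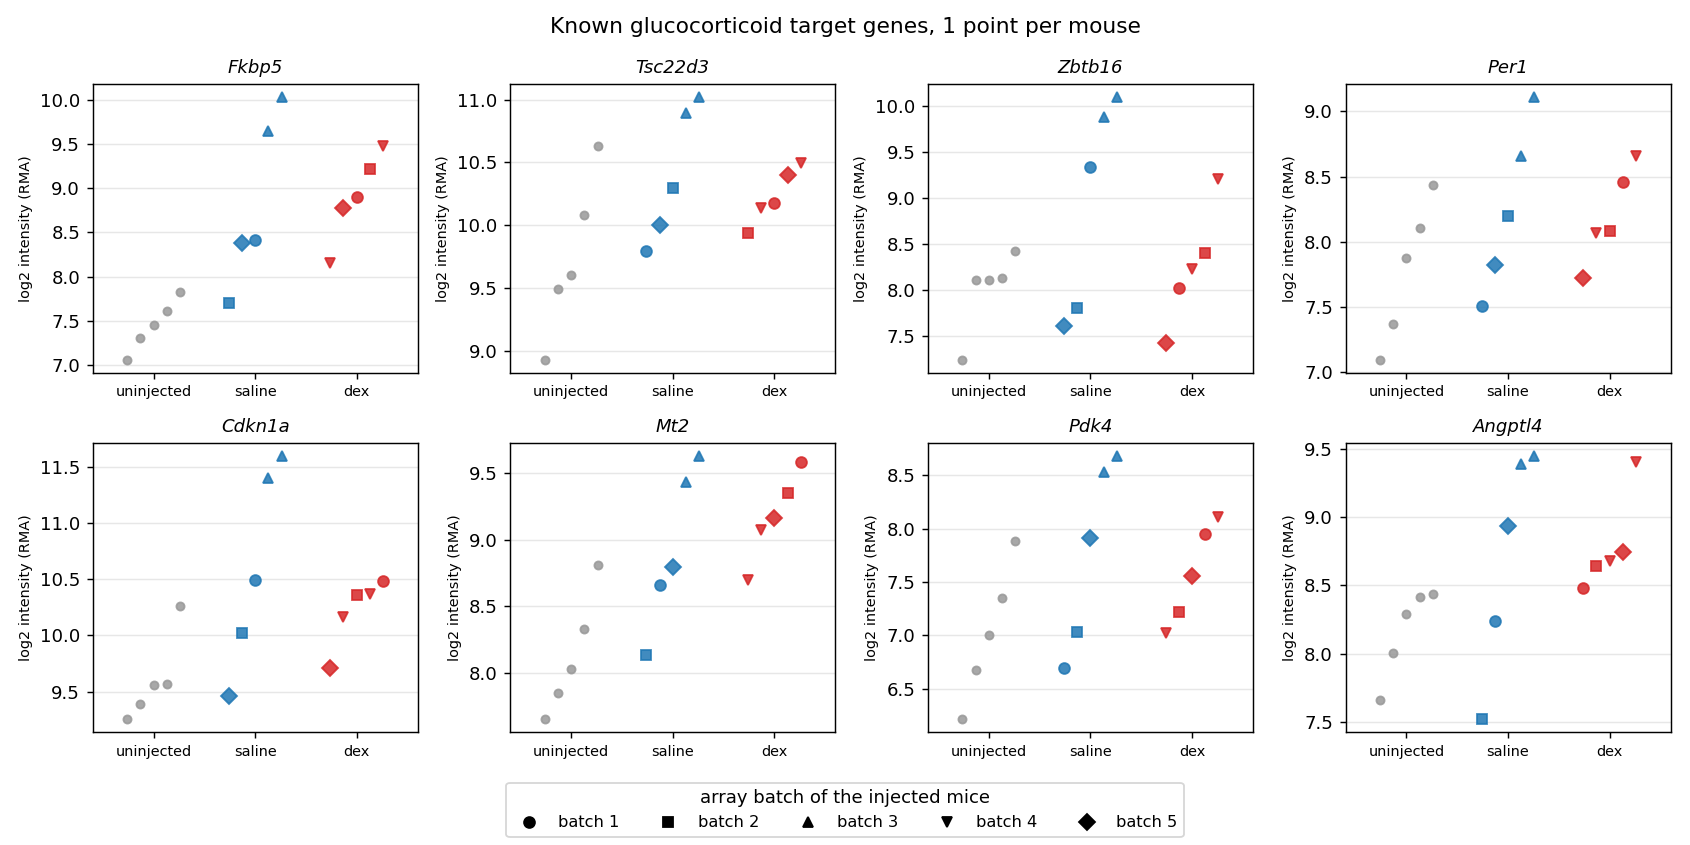
Log2 RMA intensity (y axis) of 8 known glucocorticoid target genes in 5 uninjected, 5 saline and 5 dexamethasone mice, 1 point per mouse, with marker shapes for the array batch of the injected mice. The 2 saline mice of batch 3 (upward triangles) are at or near the top of all 8 panels, with Fkbp5 at 9.65 and 10.04 against 7.70 to 8.41 in the other saline mice.

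Clock, early-response and cytokine genes gave few calls. Cry1, a repressor of the circadian clock, was the 1 of 18 clock genes that passed (0.341% of all genes rose). It read 5.81, 5.87, 5.94, 6.26 and 6.16 after saline and 7.26, 7.13, 6.43, 6.98 and 6.87 after dexamethasone. The rise was 0.92 ± 0.20 (SE, adjusted p = 0.0403). Arntl, an activator in the same clock loop, had a change of 0.53 without overlap (adjusted p = 0.1) and Dbp one of −0.52 (adjusted p = 0.801). Of 24 immediate early genes 21 were higher in sign, with a median of 0.36, and none passed. The inflammatory cytokines Tnf (−0.01), Il1b (−0.86), Ccl2 (0.49) and Il6 (0.93) did not pass. Cxcl1, a neutrophil chemokine, read 5.83, 6.04, 5.76, 6.42 and 5.87 after saline and 7.33, 5.30, 8.53, 7.65 and 7.31 after dexamethasone. Of the treated mice 4 were above all saline mice and 1 below, and the change of 1.24 had an adjusted p of 0.352.

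Mice given arsenite at the same time offered a second comparison on other arrays, dexamethasone and arsenite against arsenite alone (5 against 4 mice), which shares no mouse with the first. It called 144 probe sets higher (0.32%) and 136 lower (0.302%). Of the 121 probe sets raised against saline 120 were higher there too and 61 were called, and of the 161 lowered ones 160 were lower and 50 were called, where 56.79% of all probe sets had the same sign in both comparisons. The 62 rising genes had a median of 0.76 and the 115 falling genes one of −0.88 in that comparison. Both comparisons share 1 estimate of the spread, and fitted on their own arrays 42 probe sets were called the same way in both, in place of 111.

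Sema5a rose by 1.59 beside arsenite (adjusted p = 0.00481), Tecrl by 1.80 (adjusted p = 0.00602), Fst by 1.98 (adjusted p = 0.00229), Gnmt by 1.84 (adjusted p = 0.00193), Akr1c14 by 1.88 (adjusted p = 0.000457) and Clca3a1 by 2.36 (adjusted p = 0.00229). Adgre4 fell by 2.44 (adjusted p = 0.0413), Ms4a4c by 2.24 (adjusted p = 0.0253), Cxcl12 by 1.62 (adjusted p = 0.00977) and Itgal by 1.27 (adjusted p = 0.0222). Changes of Lox (1.12, adjusted p = 0.103), Cry1 (0.47, adjusted p = 0.442), Btla (−1.26, adjusted p = 0.225) and Nkg7 (−1.46, adjusted p = 0.0533) had the same sign and did not pass there. NK and cytotoxic cell markers had a median of −0.84 and interferon-stimulated genes one of −0.63, lower for 14 of 14 and 30 of 30 genes, and T cell markers one of −0.32. The 19 glucocorticoid-induced regulators had a median of 0.38, with 3 lower in sign, and the 20 metabolic targets one of 0.53, with 3 lower. Of these lists 1 regulator was called lower and 1 metabolic target higher, beside 89 and 80 of all 18193 genes. Fkbp5 had a change of 1.54 (adjusted p = 0.261) and Zbtb16 one of 1.35 (adjusted p = 0.459) in this comparison. The difference between the 2 dexamethasone responses was called for 0 probe sets by limma, 1706 had an unadjusted p under 0.05, and the smallest adjusted p was 0.379.

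**Figure D5:**
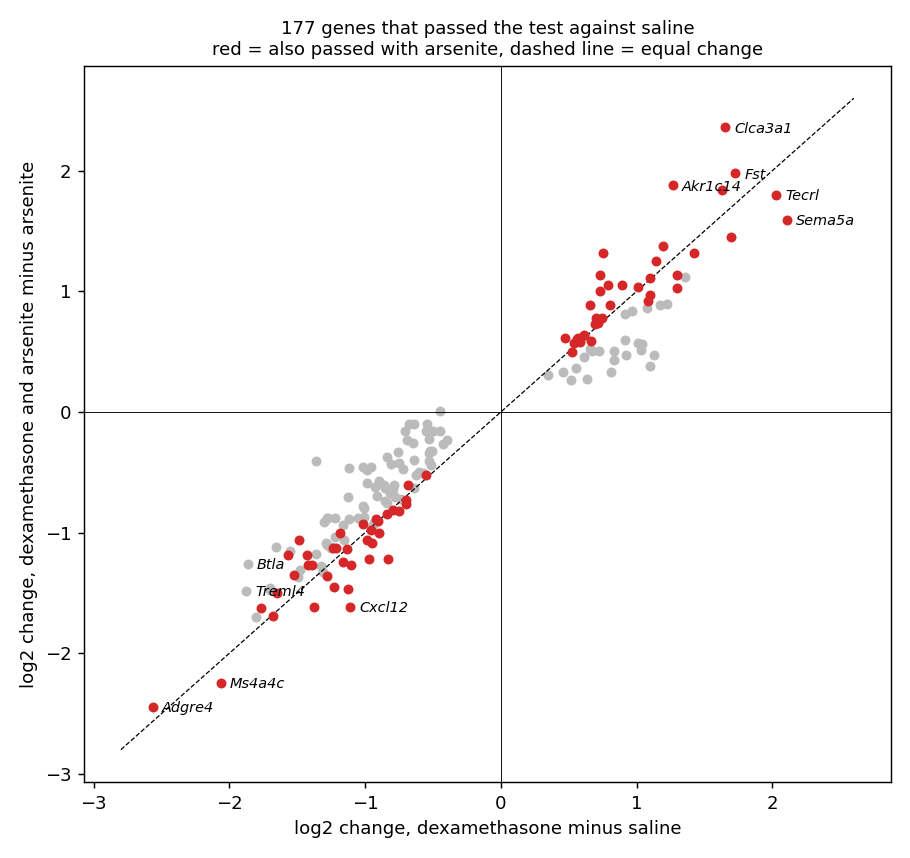
Log2 change of the 177 genes that passed against saline (x axis, dexamethasone minus saline, n = 5 and 5) and their change beside arsenite (y axis, dexamethasone and arsenite minus arsenite, n = 5 and 4), red where the second change also passed limma. The direction was shared by 62 of 62 rises and 114 of 115 falls, and 35 and 38 of them are red.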

How the data were processed

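Each lung was read on 1 Affymetrix whole-genome mouse array. The deposited values are log2 intensities that the authors made by robust multiarray averaging (RMA). The version, and which arrays were normalized together, are not given in the sources used here. The article given with the series does not describe the injected mice. The number of arrays limits the precision.

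From 45101 probe sets, 64 controls were left out and 45037 tested. A single gene symbol was attached to 34945, more than 1 to 932 and none to 9160. Each of the 18193 genes is given by the brightest of its probe sets, by the mean over the arrays fitted. Groups were fitted with limma 3.58.1 in R 4.3.3 over 19 injected mice (arsenite replicate E set aside). Empirical Bayes and Benjamini-Hochberg adjustment over all probe sets at 0.05 were used. The code was run on simulated data with independent noise, without batches or outlying mice, so that run does not vouch for the calls made here. Single genes were judged by the limma adjusted p. A two-sided exact permutation p over all divisions of the 10 mice is printed for Cd79a only. Promoters came from RefSeq (GRCm38.p6). Python 3.11.15 with matplotlib 3.10.9 drew the figures.

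The genes named are the 15 largest rises and 15 largest falls that passed, called members of 35 gene lists (at most 8 per list) and 33 fixed genes. A few other list members are named as examples, chosen after their values were seen. The mice and lists were chosen with earlier results of these data known, so lists are described by counts and medians and carry no test. Replicate letters do not pair mice: of 4 same-letter pairs, 1 had a correlation over 0.1. Groups came from the labels and batches from the raw file names in them. Alternatives were other sets of arrays, batch or replicate blocks, array weights, other centring or normalization, a filter on dim probe sets, a variance trend, the rank product, a fold threshold, the mean of all probe sets of a gene and leaving out each mouse. Fitting each comparison on its own arrays was added after seeing the data.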

Additional observations from a re-analysis of the deposited data

Results flagged for a closer look

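Single mice far from the other 4 of their group were looked for by Dixon's ratio, the gap to the nearest mouse over the range of the group, in 228 groups of 5 mice (79 named genes and 35 lists, saline and dexamethasone). The ratio passed the 95% limit of 0.71 in 13 of them, beside 11.4 if chance flags 1 in 20, so the number of flags is near that.

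Saline replicate E was high in 4 lists. Its thymus markers read 7.59 against 3.64 to 3.76 (ratio 0.967), its T cell markers 7.24 against 4.95 to 5.36 (0.822), its red blood cell markers 6.55 against 5.68 to 5.87 (0.790) and its cell cycle genes 6.72 against 5.76 to 6.02 (0.730). Without this mouse, 75 probe sets were called higher and 99 lower. Saline replicate F was high for Lst1, at 9.32 against 7.16 to 7.67 (0.763), and for Tnfrsf1b, at 8.53 against 7.35 to 7.65 (0.745), and both genes fell in the main comparison. Saline replicate C was high for Lox, at 9.23 against 8.54 to 8.64 (0.854), which lay below all treated mice. Saline replicate D was high for metallothioneins and acute phase genes, at 8.92 against 7.74 to 7.97 (0.801).

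Dexamethasone replicate A was high for skeletal muscle markers, at 7.02 against 4.02 to 4.63 (0.797), and for Il2rb, at 4.70 against 3.97 to 4.13 (0.781). Dexamethasone replicate E was high for the glucocorticoid-induced regulators, at 9.41 against 8.88 to 9.00 (0.775), for the metabolic targets of glucocorticoids, at 8.58 against 8.21 to 8.26 (0.856), and for Angptl4, a secreted inhibitor of lipoprotein lipase, at 9.41 against 8.48 to 8.74 (0.719).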

How the results depend on the processing

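All 1012 changes of the 46 named genes that passed kept their sign over the alternatives, and 679 still passed. The genes were chosen on arrays that the alternatives reuse, so the kept signs are no separate support. Without 1 mouse, between 13 (dexamethasone replicate E) and 42 (saline replicate D) of the 46 passed. Tecrl, Fst, 1110064A23Rik, Uchl1 and Adgrl3 passed in 21 of 22 alternatives, the exception being the 6 arrays of the shared batches, where none passed. With 1 mouse of each group per batch, that fit could hardly pass any gene. At the other end, Cxcl12, Gzmb and Tnik passed in 7, H2-Eb1 in 8, and Cry1 and Itga4 in 9. The weakest change was −0.38 for Itga4 and 0.38 for Tnik. Higher calls, 121 in the main fit, numbered 8 with all 20 injected arrays, 239 with batch as a fixed block, 199 with batch as a random block, 0 on the shared batches, 552 with array weights, 5083 by the rank product and 51 at a change of at least 1, and 30 to 158 without 1 mouse. Lower calls, 161, numbered 0, 236, 271, 0, 661, 4620 and 67 under these settings in the same order, 243 with the filter on dim probe sets, and 17 to 273 without 1 mouse. The rank product takes 25 differences that share mice as independent. Probe sets called the same way beside arsenite, 111, numbered 6 with all 20 arrays, 199 with the random block, 304 with array weights, 184 with the dim filter, 42 on separate arrays and 27 to 163 without 1 mouse. With the replicate letter as a block, there were 28 higher, 8 lower and 15 shared calls. The letters do not pair the mice. The difference of the responses gave 0 calls except without arsenite replicate B, where it gave 1 (range 0 to 1). Of 723 values of the 33 named genes that did not pass, 8 passed, for S100a8, S100a9, Ncr1, Arntl and Il6. The cause of these changes was not tested. With 5 mice a group, intervals of single genes are wide, as for Fkbp5.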
